A study of Mus musculus with 24 samples.

Results

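Adenylyl cyclases are the enzymes that make cyclic AMP (cAMP) from ATP, and their transcripts were followed here in striatum and cerebellum of a mouse model of Huntington's disease. Members were all probe sets whose only gene symbol in the platform annotation is an adenylyl cyclase gene. They came to 22 probe sets of 10 genes, among 18193 genes with at least 1 such single-symbol probe set. The 24 Affymetrix arrays fell into 4 groups of 6: Q111 striatum, wild-type striatum, Q111 cerebellum and wild-type cerebellum. Q111 mice (HdhQ111/HdhQ111) carry a knock-in CAG repeat allele of the mouse huntingtin gene on both chromosomes, and wild-type mice (Hdh+/Hdh+) carry the Q7 allele on both. The labels give every group an age of 3 to 10 weeks, with no age for a single array. They call the 6 replicates of a group biological, without naming separate mice, so each p-value reflects differences between arrays that may in part be technical. Sex, the makeup of an RNA pool and whether both tissues came from 1 mouse are not given in the sources used here.

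Membrane adenylyl cyclases are switched on by the G protein alpha subunits Gs and, in striatum, Golf, and several are held down by Gi. The isoforms differ in what else they answer to. Adcy1, Adcy3 and Adcy8 are stimulated by calcium and calmodulin, Adcy5 and Adcy6 are inhibited by calcium and by Gi, Adcy2, Adcy4 and Adcy7 are stimulated by G protein beta-gamma subunits once Gs is active, and Adcy9 stands apart by its weak response to the plant compound forskolin. Adcy10 is the soluble, bicarbonate-sensitive enzyme. In striatal projection neurons Adcy5 carries most of the signal from dopamine and adenosine receptors, and Adcy1 is a classical calcium-sensitive isoform of cortex, hippocampus and cerebellar granule neurons.

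All values are deposited GCRMA values read as log2, so 1 unit is a doubling, and levels were compared between groups for the same probe set and never between probe sets. Probe sets with a mean of 4 or more in either tissue entered the tests. Of the 22 probe sets, 16 passed, and they belong to 8 genes: Adcy1, Adcy2, Adcy3, Adcy5, Adcy6, Adcy7, Adcy8 and Adcy9. The other 6 probe sets had group means between 2.14 and 2.98, near the floor of the arrays. They include the only probe sets of Adcy4 (1418098_at) and Adcy10 (1439613_at), a pair of further Adcy5 probe sets (1443080_at and 1439829_at) and a pair of further Adcy7 probe sets (1450065_at and 1420970_at). Where a gene had several probe sets that passed, the brightest stands for it below and the others are given beside it.

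The dissections separated as their labels say. In wild-type mice all 13 of 13 measured marker genes of striatal projection neurons were higher in striatum, with a median difference of 6.42, and all 10 of 10 measured markers of cerebellar granule neurons were lower, with a median of -6.52. Of the striatal markers 6 had means under 4 in cerebellum, and of the granule markers 5 had means under 4 in striatum. Those passed the filter through 1 tissue alone, so their direction was fixed, and the medians include them. The other markers went the same way. Arrays of 1 group correlated at 0.983 to 0.993, and 0 pairs of arrays held identical values. The targeted gene itself, Htt (1435539_at), averaged 7.83 ± 0.13 in Q111 striatum and 7.83 ± 0.15 in wild-type striatum (SD, n = 6 each, limma adjusted p = 0.985). In cerebellum it averaged 7.68 ± 0.16 in Q111 and 7.95 ± 0.16 in wild-type mice (SD, n = 6 each, limma adjusted p = 0.178), and where this probe set lies relative to the CAG repeat was not looked up, so it does not check the genotype.

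The genes Adcy5, Adcy1 and Adcy9 lie behind promoters rich in CpG. Their sequences are shown because Adcy5 was higher in striatum and Adcy1 in cerebellum, and Adcy1 and Adcy9 each had a probe set called higher in Q111 striatum. Each sequence is the stretch of 250 bases before the start of the gene, from RefSeq on GRCm38.p6, written 5′ to 3′ on the gene's own strand. Capitals mark the GC box (GGGCGG), the short core of the cAMP response element (TGACG) and the E box (CACGTG), on either strand.
Adcy5 promoter, chr16:35154614-35154863, plus strand: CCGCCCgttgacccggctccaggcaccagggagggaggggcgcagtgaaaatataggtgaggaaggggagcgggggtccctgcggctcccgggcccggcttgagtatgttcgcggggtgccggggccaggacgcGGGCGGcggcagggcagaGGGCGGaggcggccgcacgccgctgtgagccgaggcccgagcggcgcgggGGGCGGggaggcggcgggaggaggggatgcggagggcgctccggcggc
Adcy1 promoter, chr11:7063183-7063432, plus strand: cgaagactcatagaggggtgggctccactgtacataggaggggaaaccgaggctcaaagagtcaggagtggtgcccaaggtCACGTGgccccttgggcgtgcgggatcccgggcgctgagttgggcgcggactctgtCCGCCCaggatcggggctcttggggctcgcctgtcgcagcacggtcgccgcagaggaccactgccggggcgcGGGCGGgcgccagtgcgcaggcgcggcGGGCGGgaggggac
Adcy9 promoter, chr16:4420499-4420748, minus strand: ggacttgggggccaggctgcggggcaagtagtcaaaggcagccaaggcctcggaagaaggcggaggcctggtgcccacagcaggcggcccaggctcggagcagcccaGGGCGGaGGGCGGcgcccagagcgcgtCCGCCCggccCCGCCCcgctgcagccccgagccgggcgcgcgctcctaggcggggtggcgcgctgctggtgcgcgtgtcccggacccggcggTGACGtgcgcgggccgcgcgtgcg

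The Adcy5 window was 78.0% G or C with 32 CpG and 4 GC boxes, the Adcy1 window 71.2% with 26 CpG and 3 GC boxes, and the Adcy9 window 78.8% with 34 CpG and 4 GC boxes. Over the 32851 promoter windows of the table the median was 52.4% G or C and 6 CpG, and 32.7% held a GC box. The 250-base Adcy1 window also held 1 E box, whose first base lies 169 bases before the start, and 6.02% of all windows hold one. The Adcy9 window held 1 such core of the cAMP response element, with its first base 24 bases before the start, as 17.8% of all windows do. The full element (TGACGTCA), found in 1.55% of all windows, was in 0 of the 11 windows of the 8 family genes in the table, which include Adcy4 and Adcy10 but not Adcy6 and Adcy8. Adcy2 (73.2% G or C, 23 CpG) and the first of the 2 Adcy3 windows (68.8%, 27 CpG) were of the same rich kind, whereas the 3 Adcy7 windows ranged over 54.0% to 56.4% with 3 to 5 CpG. A match of letters is a description of the window and not a binding site.

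Between the tissues some isoforms were higher in striatum and others in cerebellum. All 16 of 16 tested probe sets differed in wild-type mice by limma's moderated test, beside 71.8% of all 20738 probe sets tested. Striatum was higher for 12 (background 30.6%) and lower for 4 (background 41.2%). Such counts and medians hold some genes several times, since Adcy3 and Adcy9 have 4 probe sets each, all higher in wild-type striatum. By gene, Adcy2, Adcy3, Adcy5, Adcy7 and Adcy9 were higher in striatum, and Adcy1, Adcy6 and Adcy8 were lower. The median difference of the 16 was 0.73, against -0.09 for all probe sets. In Q111 mice 15 of 16 passed, beside 71.4% of all probe sets, with a median of 0.96 against -0.07. Striatum was higher for 11 of these (background 31.3%) and lower for 4 (background 40.1%). Ranges of the 6 striatum and 6 cerebellum arrays did not overlap for 14 of the 16 probe sets in Q111 mice (background 51.2%) and for 12 in wild-type mice (background 52.2%). These counts include Adcy8 in both genotypes and Adcy7 in Q111 mice, and the medians include both genes. Adcy7 and Adcy8 reached a mean of 4 in 1 tissue alone, so they had to differ; of the 14 probe sets that reached it in both, striatum was higher for 10 and lower for 3 in Q111 mice and higher for 11 and lower for 3 in wild-type mice. Most genes differ between these tissues, so the isoforms are described by the size and direction of each difference.

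**Figure D1:**
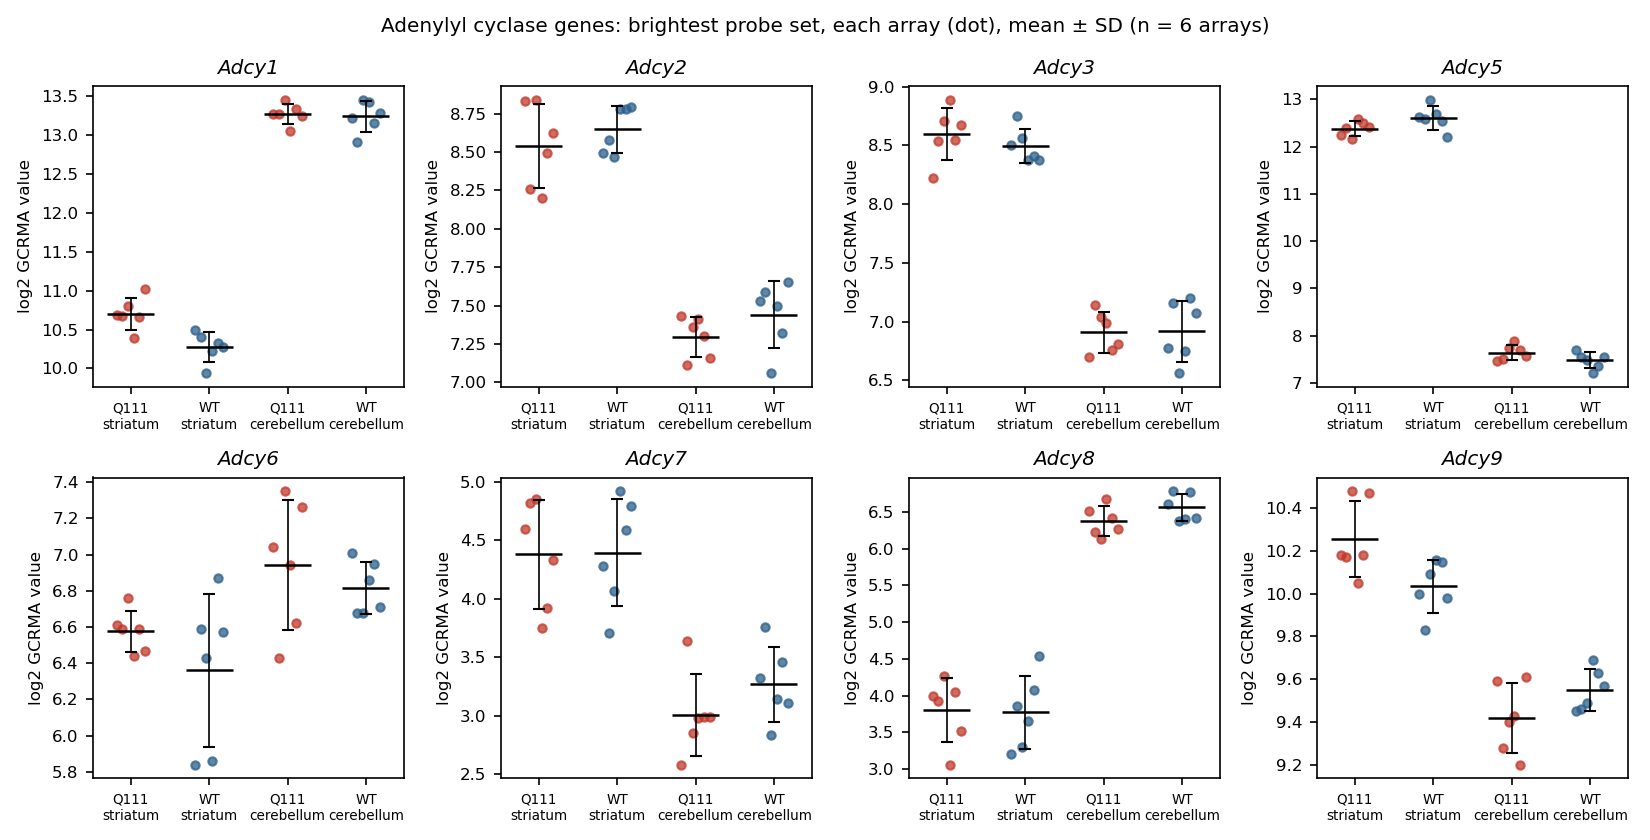
Log2 GCRMA value (vertical axis, a scale of its own in each panel) of the brightest probe set of the 8 measured adenylyl cyclase genes in Q111 striatum, wild-type (WT) striatum, Q111 cerebellum and wild-type cerebellum; dots are arrays, bars are mean ± SD of 6 arrays. Adcy5 falls between 12.16 and 12.99 in striatum and between 7.21 and 7.88 in cerebellum, and Adcy1 runs the other way.

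Adcy5, the calcium-inhibited isoform of striatal projection neurons, showed the widest tissue gap of the family. Its brightest probe set (1455296_at) lay at 12.16 to 12.59 with a median of 12.4 in Q111 striatum, and at 12.2 to 12.99 with a median of 12.61 in wild-type striatum. In cerebellum it lay at 7.46 to 7.88 with a median of 7.64 in Q111 mice, and at 7.21 to 7.7 with a median of 7.53 in wild-type mice. Every striatum array lay far above every cerebellum array, while the genotypes overlapped within each tissue. The difference between striatum and cerebellum was 4.73 (SE 0.11, 26.6-fold, limma adjusted p = 1.39e-21) in Q111 mice and 5.12 (SE 0.11, 34.8-fold, limma adjusted p = 3.06e-22) in wild-type mice. The second Adcy5 probe set (1447696_x_at) differed 11.6-fold in Q111 and 13.7-fold in wild-type mice. In order of level the groups ran wild-type striatum, Q111 striatum, Q111 cerebellum and wild-type cerebellum, and neither pair of neighbours within a tissue differed beyond its spread.

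Adcy6, the closest relative of Adcy5, had a small gap the other way. It averaged 6.58 ± 0.12 in Q111 striatum against 6.94 ± 0.36 in Q111 cerebellum, and 6.36 ± 0.42 in wild-type striatum against 6.81 ± 0.15 in wild-type cerebellum (SD, n = 6 each). The tissues overlapped in both genotypes, with limma differences of -0.36 (SE 0.16, adjusted p = 0.0474) in Q111 and -0.45 (SE 0.16, adjusted p = 0.0142) in wild-type mice. Both calls were lost with the set of replicate numbers, 1 to 3 or 4 to 6, in the model (adjusted p = 0.147 in Q111 and 0.0665 in wild-type mice).

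Among the calcium-stimulated isoforms, Adcy1 and Adcy8 were lower in striatum and Adcy3 was higher. The brightest Adcy1 probe set (1456487_at) lay at 10.39 to 11.02 with a median of 10.67 in Q111 striatum, against 13.05 to 13.44 with a median of 13.26 in Q111 cerebellum. In wild-type mice it lay at 9.94 to 10.5 with a median of 10.3 in striatum, against 12.91 to 13.45 with a median of 13.24 in cerebellum. No striatum array reached the cerebellum arrays. Adcy1 was 5.9-fold lower in striatum in Q111 mice (log2 difference -2.56, SE 0.1, limma adjusted p = 1.44e-16) and 7.76-fold lower in wild-type mice (-2.96, SE 0.1, limma adjusted p = 7.96e-18). Its second probe set (1445359_at) was 5.92-fold lower in Q111 striatum and 10.8-fold lower in wild-type striatum. From highest to lowest, the groups ran Q111 cerebellum, wild-type cerebellum, Q111 striatum and wild-type striatum; the cerebellum groups overlapped almost wholly, and the striatum groups are set against each other below.

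Adcy8, which like Adcy1 couples calcium entry to cAMP, had striatum means under 4, so its differences are lower bounds with values under 4 set to 4. It averaged 3.8 ± 0.44 in Q111 striatum against 6.37 ± 0.2 in Q111 cerebellum, and 3.77 ± 0.5 in wild-type striatum against 6.56 ± 0.19 in wild-type cerebellum (SD, n = 6 each). It was at least 4.99-fold lower in striatum in Q111 mice and at least 5.5-fold lower in wild-type mice, with no overlap of the tissues; it passed the filter through cerebellum alone, so no test is given. Adcy3, known as the cyclase of olfactory neurons and of neuronal primary cilia, averaged 8.6 ± 0.23 in Q111 striatum against 6.91 ± 0.17 in Q111 cerebellum, and 8.5 ± 0.14 against 6.92 ± 0.26 in wild-type mice (1421960_at, SD, n = 6 each). That is 3.23-fold higher in striatum in Q111 mice and 2.99-fold higher in wild-type mice. Another pair of Adcy3 probe sets (1421959_s_at and 1436928_s_at) gave 4.32- and 4.72-fold in Q111 and 4.36- and 4.77-fold in wild-type mice. The fourth (1436929_x_at) stayed near the filter in every group, and its difference was 0.12 in Q111 (limma adjusted p = 0.404) and 0.39 in wild-type mice (adjusted p = 0.00688), so the probe sets of Adcy3 disagree on size.

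Of the beta-gamma-stimulated isoforms, Adcy2 and the brightest Adcy7 probe set were higher in striatum, and Adcy4 was not tested. Adcy2 averaged 8.54 ± 0.27 in Q111 striatum against 7.29 ± 0.13 in Q111 cerebellum, and 8.65 ± 0.15 against 7.44 ± 0.22 in wild-type mice (SD, n = 6 each), with no overlap of the tissues. This was a 2.37-fold difference in Q111 and a 2.31-fold difference in wild-type mice (limma adjusted p = 6.5e-10 and 1.17e-09). Adcy7, which is prominent in immune cells as well as in brain, averaged 4.38 ± 0.46 in Q111 striatum against 3.0 ± 0.35 in Q111 cerebellum, and 4.39 ± 0.46 against 3.27 ± 0.32 in wild-type mice. With values under 4 set to 4, it was at least 1.35-fold higher in striatum in Q111 mice and at least 1.36-fold higher in wild-type mice; it passed the filter through striatum alone, so no test is given. Adcy9, expressed widely in brain, was higher in striatum on all 4 of its probe sets, by 0.73 to 1.09 in Q111 and by 0.3 to 0.85 in wild-type mice.

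**Figure D2:**
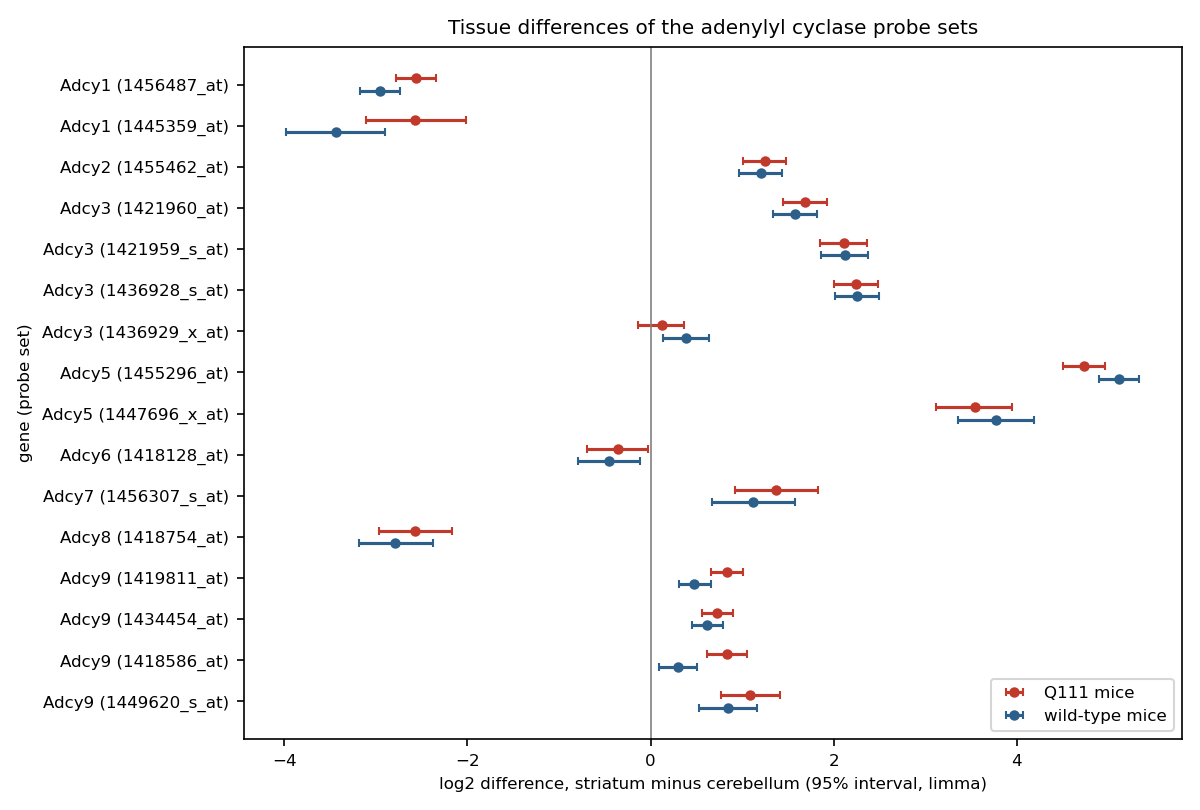
Log2 difference between striatum and cerebellum (horizontal axis; points with 95% limma intervals) for each of the 16 tested probe sets, in Q111 mice (upper point) and wild-type mice (lower point). Adcy5 stands at 4.73 and 5.12, Adcy1 and Adcy8 lie below 0, and the intervals of both genotypes overlap for most probe sets.

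In striatum 2 of the 16 probe sets passed the test between genotypes, 1 of Adcy1 and 1 of Adcy9, both higher in Q111 mice. Background was 2.87% of all probe sets called either way and 0.834% called higher, against 2.03% called lower. With no adjustment, 5 of the 16 had a limma p under 0.05, beside 19.0% of all probe sets. Those belong to Adcy1, Adcy5 and Adcy9 alone, so some genes count more than once. The differences were higher for 10 and lower for 6 of the 16, with a median of 0.09 against -0.02 over all probe sets. Ranges of the genotypes did not overlap for 1 of the 16, an Adcy9 probe set, beside 2.39% of all.

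Adcy1, the calcium-stimulated isoform that was lower in striatum than in cerebellum, was higher in Q111 striatum. The values given above put the brightest probe set at 10.39 to 11.02 in Q111 striatum and 9.94 to 10.5 in wild-type striatum. All 6 Q111 arrays lay above the wild-type mean, and the ranges overlapped between 10.39 and 10.5. The difference was 0.43 (SE 0.1, 95% interval 0.21 to 0.64, 1.34-fold, limma adjusted p = 0.0304, two-sided exact permutation p = 0.00649). The second probe set lay at 5.38 to 6.59 with a median of 5.93 in Q111 striatum, and at 4.65 to 6.04 with a median of 4.97 in wild-type striatum. It was 0.84 higher (SE 0.26, 1.79-fold), again with 6 of 6 Q111 arrays above the wild-type mean, and did not pass (limma adjusted p = 0.0809, exact permutation p = 0.013). The Adcy1 call did not hold in every setting: the adjusted p was 0.0528 to 0.0643 without the filter, with the number set as a term and with the striatum arrays fitted alone. Leaving out single arrays gave an adjusted p of 0.0161 to 0.077, over 0.05 without Q111 replicate 1, 3 or 6 or wild-type replicate 3, 4 or 6.

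Adcy9, the forskolin-insensitive isoform, had its clearest genotype difference on a probe set that is not its brightest. That probe set (1418586_at) lay at 8.74 to 9.03 with a median of 8.88 in Q111 striatum, and at 8.22 to 8.66 with a median of 8.47 in wild-type striatum. Every Q111 array lay above every wild-type array. The difference was 0.43 (SE 0.1, 95% interval 0.22 to 0.64, 1.35-fold, limma adjusted p = 0.0274), and the exact permutation p was 0.00216, the smallest that 6 against 6 arrays allow. The brightest probe set (1419811_at) lay at 10.05 to 10.48 with a median of 10.18 in Q111 striatum, and at 9.83 to 10.16 with a median of 10.05 in wild-type striatum. It differed by 0.22 (SE 0.08, limma adjusted p = 0.152, exact permutation p = 0.0325). The remaining Adcy9 probe sets differed by 0.13 (1434454_at, limma adjusted p = 0.41) and 0.21 (1449620_s_at, limma adjusted p = 0.486). So all 4 were higher in Q111 striatum, by 0.13 to 0.43, and 1 of them passed. Its adjusted p ran over 0.0133 to 0.0654 as single arrays were left out, and exceeded 0.05 without Q111 replicate 5 or 6 or wild-type replicate 4 or 6.

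Markers of cerebral cortex projection neurons were also higher in Q111 striatum. Of 12 such markers 10 were measured, all 10 were higher in Q111 striatum, 2 passed the test (Neurod6 by 1.12 and Fezf2 by 0.71), and the median difference was 0.42. In striatum 0 of the 10 had a mean under 4. The direction was less uniform within the sets of replicate numbers. In numbers 4 to 6 Tbr1 (-0.34), Rasgrf2 (-0.39), Nrn1 (-0.16) and Cux2 (-0.09) were lower in Q111 striatum and the others higher. In numbers 1 to 3 Lamp5 (-0.03) was lower and the others were higher. The mean of the list lay at 7.12 to 8.09 in Q111 striatum and 6.84 to 7.59 in wild-type striatum. By array, the 3 Q111 samples with the highest cortex means (8.03, 8.04 and 8.09) had the 3 highest Adcy1 values of all 12. The wild-type sample with the lowest mean (6.84) had the lowest Adcy1 value. Other wild-type arrays ran otherwise: replicates 5 and 6, with the highest wild-type means (7.56 and 7.59), had Adcy1 at 10.33 and 10.27. Wild-type replicate 1, at a mean of 7.14, had the highest wild-type Adcy1 value, 10.5. The Adcy9 probe set 1418586_at was mixed. Its highest Q111 value, 9.03, was in replicate 5 with a cortex mean of 7.7, and wild-type replicate 3 was at 8.55. Q111 replicate 6, with the highest cortex mean, was at 9.02, and Q111 replicate 4, with the lowest of Q111 (7.12), was at 8.74. Other lists differed too. Of 9 measured endothelial and mural markers 1 was higher and 2 were called lower in Q111 striatum (Cldn5, -0.73, and Rgs5, -0.3), and the list mean lay at 6.78 to 7.0 in Q111 and 7.01 to 7.36 in wild-type striatum, with no overlap. Of 9 oligodendrocyte markers 1 was higher and 0 were called, with list means of 10.91 to 11.53 in Q111 and 11.39 to 11.62 in wild-type striatum. Of 9 microglia markers 3 were called higher (C1qa, C1qb and C1qc) and 1 lower (Aif1), with list means of 7.51 to 7.84 in Q111 and 7.33 to 7.65 in wild-type striatum. The part of these lists in the Adcy1 and Adcy9 differences was not tested. In such tissue RNA, a change in the number of cells of a type and a change in RNA per cell cannot be told apart.

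Adcy5 did not pass in striatum. The values given above overlapped, with all 6 Q111 arrays below the wild-type mean, and the difference was -0.22 (SE 0.11, 95% interval -0.44 to 0, limma adjusted p = 0.262, exact permutation p = 0.0952). The second probe set differed by -0.13 (limma adjusted p = 0.786). Array by array, Adcy5 followed the mean of 13 measured striatal projection neuron markers, which do not include it. The sample with the highest mean, wild-type replicate 3 at 11.75, had the highest Adcy5 value, and the 2 samples with the lowest means, wild-type replicate 6 at 10.83 and Q111 replicate 3 at 10.85, had the 2 lowest Adcy5 values. That list had a median difference of -0.1 with 4 of 13 markers higher and 0 called, and its part in the Adcy5 values was not tested.

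The other isoforms gave no call between genotypes in striatum. Adcy6 was 0.22 higher (SE 0.16, limma adjusted p = 0.501), with all 6 Q111 arrays above the wild-type mean and 2 wild-type arrays apart at 5.84 and 5.86. Adcy2 differed by -0.11 (95% interval -0.34 to 0.13) and the 4 Adcy3 probe sets by -0.13 to 0.1. Adcy7 differed by -0.01 (95% interval -0.47 to 0.44) and Adcy8 by 0.03 (95% interval -0.38 to 0.43), with Adcy8 near the floor and Adcy7 described further below.

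**Figure D3:**
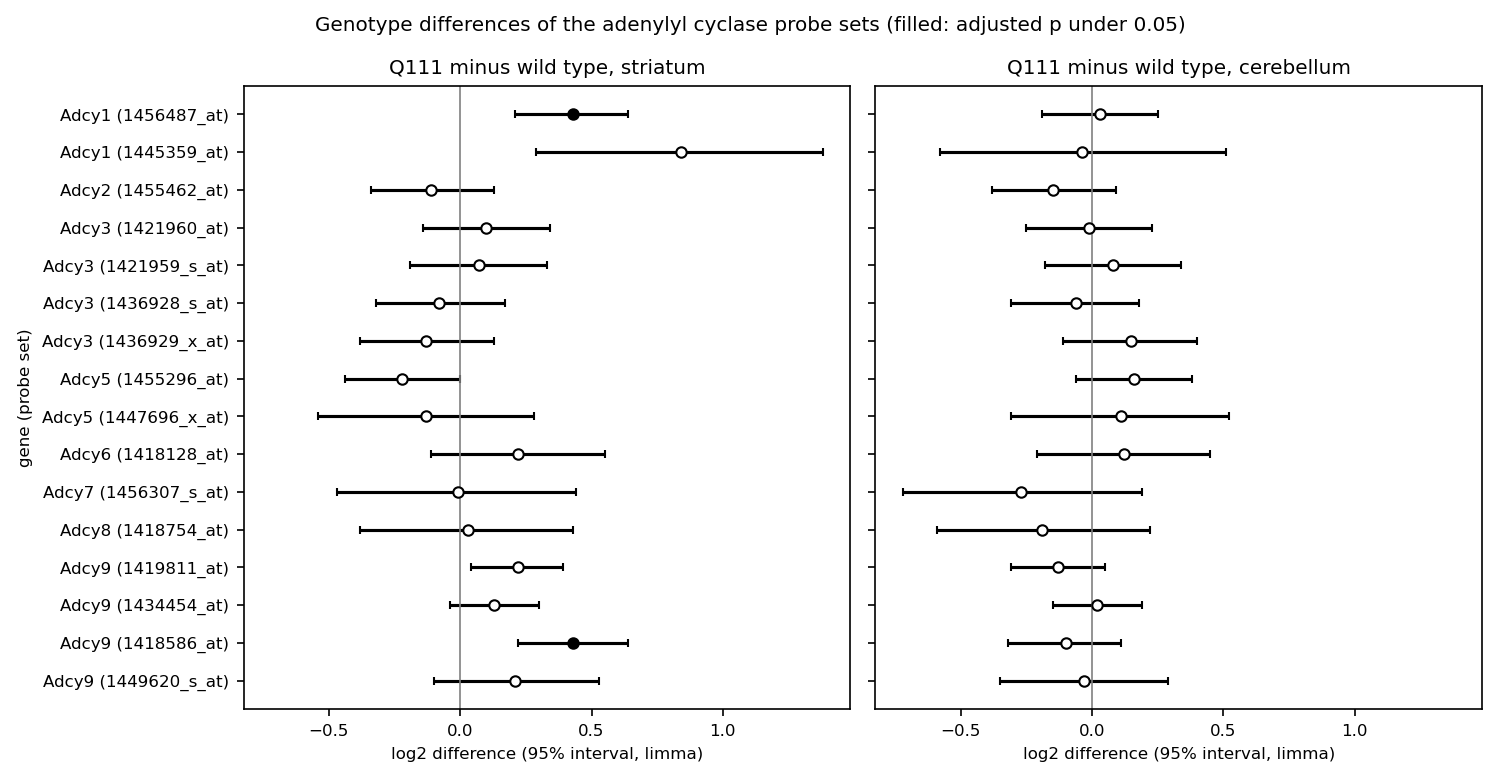
Log2 difference between Q111 and wild type (horizontal axis; points with 95% limma intervals) for each of the 16 tested probe sets, in striatum (left) and cerebellum (right). Filled points passed at an adjusted p under 0.05: Adcy1 (1456487_at) and Adcy9 (1418586_at), both 0.43 in striatum, and 0 in cerebellum.

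In cerebellum no member passed between genotypes. The count was 0 of 16 by limma, also 0 at an unadjusted p under 0.05, beside 0.458% of all probe sets called and 13.8% with an unadjusted p under 0.05. Differences were at most 0.27 in size, with a median of -0.02 against -0.05 for all probe sets, and the lowest adjusted p was 0.515. Adcy1, higher there than in striatum, differed by 0.03 (95% interval -0.19 to 0.25), Adcy5 by 0.16 (95% interval -0.06 to 0.38) and the Adcy9 probe set 1418586_at by -0.1 (95% interval -0.32 to 0.11).

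Whether a genotype difference was larger in striatum than in cerebellum was tested directly, as the difference between both differences. It passed for 0 of the 16 probe sets by limma, beside 0.0868% of all, and 5 of the 16 had an unadjusted p under 0.05, beside 10.1% of all. The largest on the brightest probe sets were 0.4 for Adcy1 (95% interval 0.09 to 0.7, limma adjusted p = 0.337), -0.39 for Adcy5 (95% interval -0.7 to -0.07, adjusted p = 0.371) and 0.35 for Adcy9 (95% interval 0.1 to 0.6, adjusted p = 0.272). The second Adcy1 probe set (1445359_at) gave 0.87 (95% interval 0.11 to 1.64, limma adjusted p = 0.428). The Adcy9 probe set 1418586_at gave 0.53 (95% interval 0.23 to 0.83, limma adjusted p = 0.138). The striatum calls of Adcy1 and Adcy9 are therefore not shown to be particular to striatum.

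The genotype difference of Adcy7 in striatum changed between the sets of replicate numbers, and that of no other member passed such a test. Over all tested probe sets the mean of numbers 1 to 3 and the mean of numbers 4 to 6 lay close together within a tissue, with an SD of the difference of 0.0534 in striatum and 0.0512 in cerebellum, against 0.211 and 0.179 for the difference between genotypes. No label records a step that would set these means equal. The genotype difference was therefore also computed within numbers 1 to 3 and within numbers 4 to 6. The test of the change between both sets was chosen after the data were seen.

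Adcy7 ran in opposite directions in the 2 sets. In numbers 1 to 3 it was at 4.6, 4.82 and 4.85 in Q111 striatum, against 4.28, 3.71 and 4.07 in wild-type striatum. In numbers 4 to 6 it was at 3.75, 3.92 and 4.33 in Q111 striatum, against 4.92, 4.59 and 4.79 in wild-type striatum. The genotypes did not overlap in either set, with differences of 0.74 in the first and -0.77 in the second, a change of -1.51 (SE 0.34, limma adjusted p = 0.0197; background 2.9% of all probe sets in striatum). Of the 12 values 3 lie under 4, where the arrays near their floor. Adcy8, at 3.06 to 4.54 over the 12 striatum arrays, was too close to that floor for a difference to be read.

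Adcy5 had the opposite signs and did not pass. Its difference was -0.47 in numbers 1 to 3 and 0.02 in numbers 4 to 6 (change 0.49, SE 0.19, limma adjusted p = 0.157), and its second probe set gave -0.71 and 0.45 (change 1.15, SE 0.35, limma adjusted p = 0.0734). The isoforms called between genotypes gave like values in both sets: the Adcy1 difference was 0.43 in numbers 1 to 3, with 0.42 in numbers 4 to 6, and that of Adcy9 (1418586_at) 0.4 and 0.46. Neither passed within a set alone, where 3 arrays stand against 3 (limma adjusted p = 0.202 and 0.164 for Adcy1, 0.192 and 0.15 for Adcy9).

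**Figure D4:**
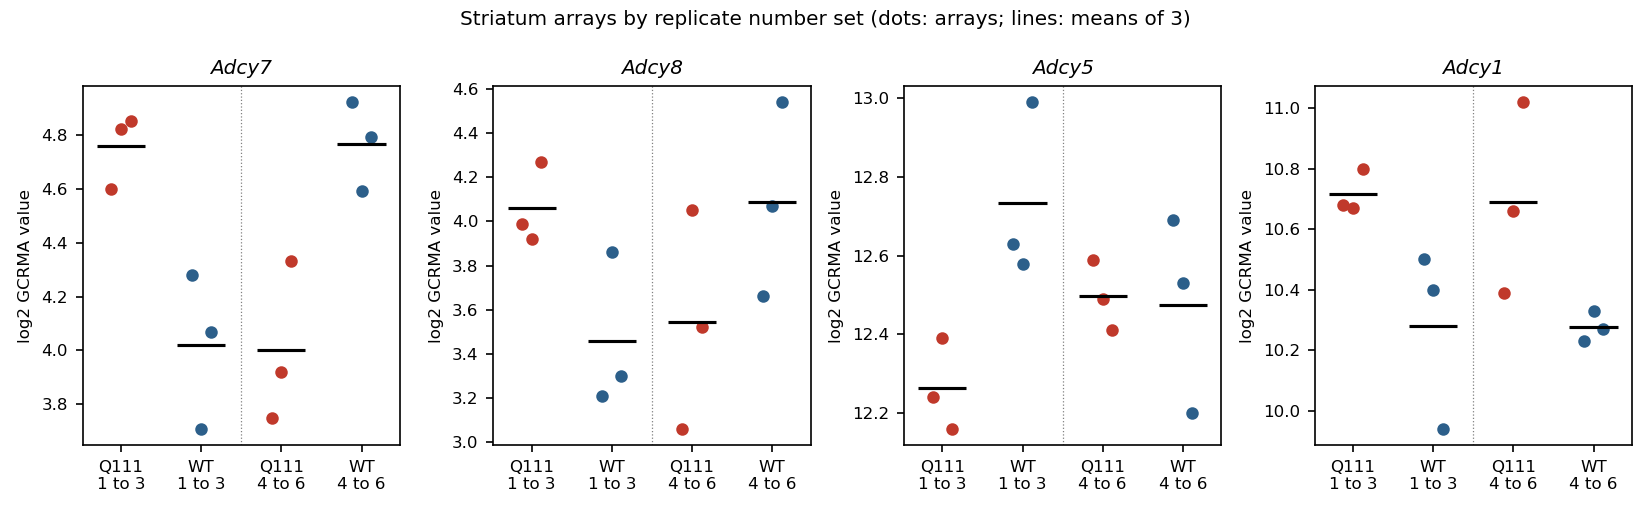
Log2 GCRMA value (vertical axis, a scale of its own in each panel) of Adcy7, Adcy8, Adcy5 and Adcy1 in striatum, with arrays numbered 1 to 3 left of the dotted line and 4 to 6 right of it; dots are arrays and lines are means of 3. Adcy7 is higher in Q111 on the left and lower on the right, Adcy8 lies near the floor at 3.06 to 4.54, and the Adcy1 gap is 0.43 and 0.42.

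Markers of thalamus also differed in sign between the sets. Of 10 such markers 9 were measured, with 0 under 4 in striatum, and their mean lay at 6.35 to 8.06 in Q111 striatum and 6.45 to 8.42 in wild-type striatum. In numbers 1 to 3 the 3 Q111 samples (7.52, 7.72 and 8.06) lay above the 3 wild-type samples (6.77, 7.19 and 6.45). In numbers 4 to 6 the Q111 samples (7.25, 7.44 and 6.35) overlapped the wild-type samples (7.14, 7.72 and 8.42), with the lowest of the 6 in Q111 and the highest in wild type. Of the 9 markers 8 were higher in Q111 in the first set and lower in the second. The ninth, Lhx2, was higher in both (0.33 and 0.55) and was called over all arrays (0.44, limma adjusted p = 0.0163). The vesicular glutamate transporter Slc17a6 differed by 2.02 in the first set and -1.01 in the second, and the transcription factor Tcf7l2 by 0.9 and -1.53. Within a set Adcy7 and the list mostly did not run together. In numbers 1 to 3 of Q111 the Adcy7 values (4.6, 4.82 and 4.85) rose in the order of the list means. In wild type of that set the highest list mean (7.19) stood beside the lowest Adcy7 value (3.71). In numbers 4 to 6 the lowest list mean of Q111 (6.35) and of wild type (7.14) stood beside the highest Adcy7 value of Q111 (4.33) and of wild type (4.92). The part of these markers in the Adcy7 values was not tested.

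**Figure D5:**
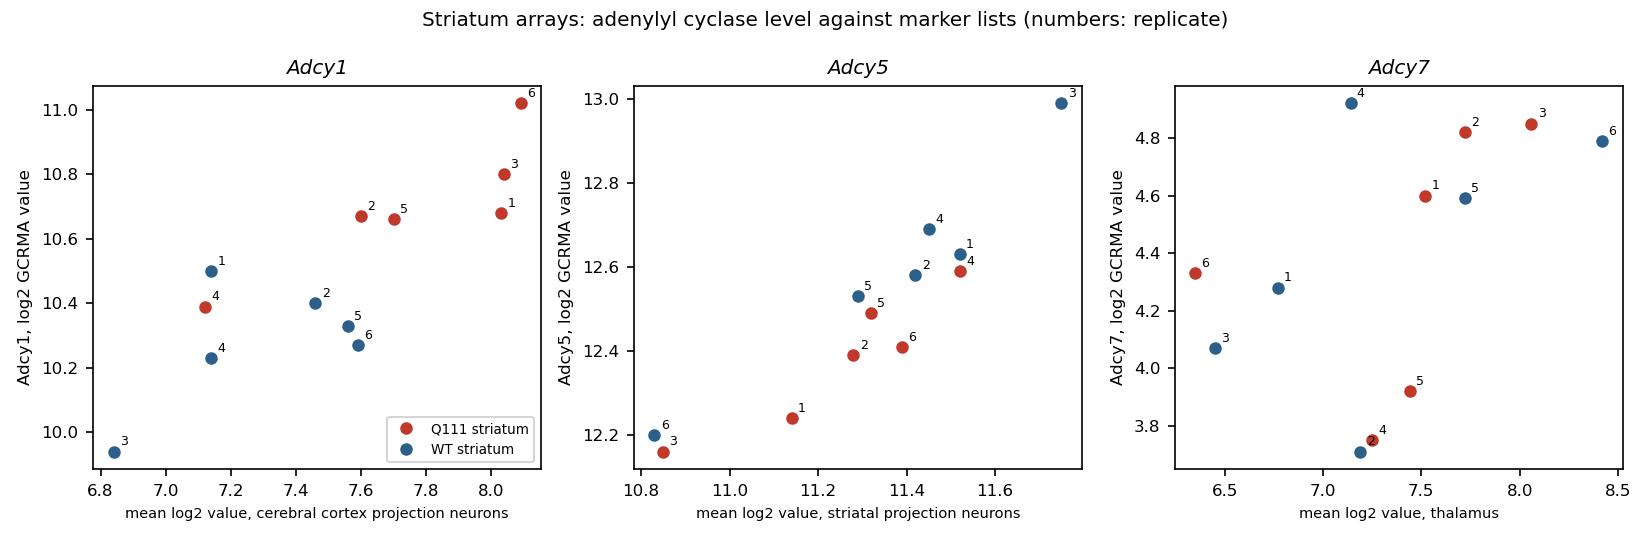
Level of Adcy1, Adcy5 and Adcy7 (vertical axes, log2 GCRMA value) against the mean log2 value of marker genes of cortex projection neurons, striatal projection neurons and thalamus (horizontal axes) over the 12 striatum arrays, each marked with its replicate number. Adcy5 rises with the striatal marker mean over 10.83 to 11.75, and the 3 arrays highest in Adcy1 are Q111 arrays with cortex marker means of 8.03 to 8.09. The wild-type array highest in Adcy1, at 10.5, has a cortex marker mean of 7.14.

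Patterns across all arrays were dominated by tissue. Among 10752 candidate genes, those most like Adcy5 over the 24 arrays were Tmem158 (Pearson r = 0.999), Rin1 (0.999) and Mn1 (0.998), all higher in striatum. Tmem158 differed by 4.89 in wild-type mice, and Rin1 and Mn1 averaged 10.3 and 8.9 in wild-type striatum, against values under 4 in cerebellum (3.55 and 2.27). Those most like Adcy1 were Ifitm10 (0.993), Aifm3 (0.992) and Lin7a (0.992), with wild-type differences of -4.41, -2.99 and -2.65. Such values mostly repeat the split into 2 tissues, since all 24 points share it. Within the 12 striatum arrays the genes most like Adcy1 were Igsf21 (0.946), Lrrc4 (0.945) and Hivep3 (0.935), and those most like the Adcy9 probe set 1418586_at were Trpc4ap (0.951), Zfp777 (0.923) and Pitpnm3 (0.918). These correlations describe the arrays, which share genotype and dissection, and carry no test.

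The proteins around the cyclases were read from 9 lists of 101 genes, of which 75 were measured. In striatum 0 of 75 passed as higher and 4 as lower in Q111 mice, 5.33% beside 2.87% of all probe sets, and 17 (22.7%) had an unadjusted p under 0.05, beside 19.0% of all. Of the 75, 31 were higher, with a median of -0.02, the same as over all probe sets. In cerebellum 0 passed by limma (12, or 16.0%, with an unadjusted p under 0.05, beside 13.8% of all), and the difference between both differences also passed for 0 (10 unadjusted, or 13.3%, beside 10.1%).

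The 4 lower genes were 3 of the 14 measured anchoring and cyclase-associated proteins and 1 of the 10 measured beta and gamma subunits. Snapin, a SNARE-associated protein reported to bind Adcy6, lay at 7.66 to 7.84 with a median of 7.75 in Q111 striatum and 8.1 to 8.59 with a median of 8.36 in wild-type striatum, with no overlap. It fell by 0.59 (SE 0.09, limma adjusted p = 0.000599), while its second probe set differed by -0.12 (adjusted p = 0.504). Akap1, which anchors protein kinase A at mitochondria, lay at 6.85 to 7.3 in Q111 striatum and 7.5 to 7.68 in wild-type striatum, and fell by 0.52 (SE 0.09, limma adjusted p = 0.00312) and by 0.45 on a second probe set (adjusted p = 0.0448). Akap8, a nuclear anchoring protein, lay at 6.9 to 7.29 in Q111 striatum and 7.35 to 7.49 in wild-type striatum, and fell by 0.31 (SE 0.08, limma adjusted p = 0.0427), while a second probe set differed by -0.39 with overlap (adjusted p = 0.12). Gnb5, the beta subunit that pairs with R7 regulators of G protein signalling, lay at 10.64 to 10.87 in Q111 striatum and 10.83 to 11.32 in wild-type striatum, and fell by 0.32 (SE 0.08, limma adjusted p = 0.0314). All 4 were lower in both number sets.

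The steps directly before and after Adcy5 did not pass. Gnal, the Golf alpha subunit that activates Adcy5 in striatum, averaged 11.41 ± 0.13 in Q111 striatum and 11.59 ± 0.18 in wild-type striatum (SD, n = 6 each), a difference of -0.18 (limma adjusted p = 0.237). Its partner Gng7 differed by -0.3 (adjusted p = 0.366) and Ric8b, which helps fold Golf, by -0.28 (adjusted p = 0.132). Gnas differed by 0.01, the dopamine receptor Drd1 by 0.01, Drd2 by -0.25 (adjusted p = 0.476) and the serotonin receptor Htr4 by -0.28 (adjusted p = 0.276). Downstream, the kinase subunit Prkacb differed by 0.09, Prkar1b by 0.21 (adjusted p = 0.101), the kinase inhibitor Pkib by 0.4 (adjusted p = 0.155) and the phosphoprotein DARPP-32 (Ppp1r1b) by -0.09. The inhibitory alpha subunit Gnai3 came nearest to the threshold, at -0.27 (limma adjusted p = 0.0569). Camk2a, a calcium-dependent kinase that is also a cortex marker, differed by 0.41 (adjusted p = 0.114), and Prkca by -0.28 (adjusted p = 0.25). Among the other effectors and the cAMP-responsive factors, Rapgef3 differed by 0.14, Hcn2 by 0.13, Crtc1 by 0.19 and Ep300 by -0.1. Adora2a was not analysed here.

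Several of these genes shared the tissue split of Adcy5. In wild-type mice Gnal was 2.93 higher in striatum than in cerebellum, Gng7 6.62 and Ppp1r1b 4.19. Drd1 and Drd2 averaged 11.14 and 11.48 in wild-type striatum, against values under 4 in cerebellum (2.95 and 2.06). Gnas, the general Gs alpha subunit, differed by -0.53 and the kinase inhibitor Pkib by -5.9, the direction of Adcy1 and Adcy8.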

How the data were processed

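The authors deposited 1 table of GCRMA values for 24 Affymetrix arrays, per the submitters' processing notes, with no version given in the sources used here. GCRMA corrects background by probe sequence, gives the arrays 1 distribution and summarises each probe set. No log base is given; the deposited values, -0.77 to 16.33, were read as log2. The number of arrays limits the precision. After 64 control probe sets were left out, 20738 of 45037 had a mean of at least 4 in striatum or cerebellum. One linear model with a mean per group was fitted to all 24 arrays with limma 3.58.1 in R 4.3.3 (20 residual degrees of freedom, prior 3.22). Adjusted p is Benjamini-Hochberg over the 20738, with a threshold of 0.05. Single members were also tested with an exact permutation of 924 splits, the smallest p being 0.00216. The fitting code was tested on simulated data. Genes came from the platform annotation of 2016, with chromosomes from GRCm38.p6. Named pathway genes were those past the threshold or otherwise up to 2 per list with the largest striatum difference, with Htt and a set of named genes (Gnal, Gnas, Drd1, Adora2a, Ppp1r1b, Prkacb) added; 1 further named gene is not reported here. The members and lists were chosen with earlier results of these data known. Alternatives were another filter, normalisation, centring, a replicate block, the number set, array weights, an intensity trend, fewer groups, another threshold, other probe sets and each array left out.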

Additional observations from a re-analysis of the deposited data

Results flagged for a closer look

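In wild-type striatum, replicate 1 of the second Adcy1 probe set (1445359_at) lay at 6.04, apart from the other 5 arrays at 4.65 to 5.17. Without this array 3 members were called between genotypes in striatum. In wild-type cerebellum, replicate 5 of the second Adcy5 probe set (1447696_x_at) lay at 6.38, with the other 5 at 6.24 to 6.29. These were 2 of 64 groups of 6 arrays tested for a sample standing apart, and chance marks about 1 in 20. The genotype difference of Adcy7 (1456307_s_at) in striatum changed by -1.51 between numbers 1 to 3 and numbers 4 to 6, by a test of the change itself (limma adjusted p = 0.0197).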

How the results depend on the processing

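The count of 2 members called between genotypes in striatum was 2 at a mean of at least 5, with quantile normalization, median centring, array weights or an intensity trend, and 3 at an adjusted p of 0.1. It was 1 (Adcy9) without the filter, with replicate numbers as a block, with the number set as a term and with the compared groups alone, 0 in numbers 1 to 3 alone and 1 (Adcy7, -0.77, adjusted p = 0.0407) in numbers 4 to 6 alone, fitted on fewer arrays. Single arrays left out gave 0 to 3: 0 without Q111 replicate 6 or wild-type replicate 4 or 6, and 1 without Q111 replicate 1, 3 or 5 or wild-type replicate 3. All probe sets called were 595, but 384 without the filter, 316 with the number set, 242 and 251 in the 2 sets and 1344 at 0.1. In cerebellum every alternative gave 0. The difference between both genotype differences, striatum minus cerebellum, gave 0 to 1 (Adcy9, without wild-type cerebellum replicate 2). The same replicate number in both genotypes correlated at -0.409 to -0.0881 in striatum and -0.423 to 0.119 in cerebellum, with 0 of 6 samples matching their own number best; between the tissues it was -0.0547 to 0.142 in Q111 (2 of 6) and -0.0043 to 0.183 in wild type (3 of 6). Since not every pair was over 0.1, samples were taken to share only a number; the block gave 1 call, with Adcy1 at an adjusted p of 0.0518.

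Direction turned only for differences that did not pass. Changes of setting are given for the brightest probe sets, and other probe sets are given in the main model. In striatum these were, in numbers 1 to 3 alone, Adcy7 (0.74), Adcy3 (-0.11) and Adcy2 (0.13), and in numbers 4 to 6 alone Adcy8 (-0.55) and Adcy5 (0.02), with Adcy3 at -0.08 and -0.13 on 2 other probe sets. In cerebellum they were Adcy3 (0.08 with quantile normalization, 0.13 in numbers 1 to 3, 0.02 with array weights, 0.08 and 0.15 on other probe sets), Adcy5 (-0.01 in numbers 1 to 3), Adcy1 (-0.07 in numbers 4 to 6, -0.04 on its other probe set) and Adcy9 (0.02 on 1434454_at). For the difference between both genotype differences they were Adcy2 (-0.02 with quantile normalization, -0.14 in numbers 4 to 6) and Adcy3 (-0.24 in numbers 1 to 3, -0.01, -0.01 and -0.27 on other probe sets). In numbers 4 to 6 they were also Adcy6 (-0.03), Adcy8 (-0.47) and Adcy7 (-0.51). With single arrays left out, genotype differences ran over -0.09 to 0.18 for Adcy8 and -0.15 to 0.11 for Adcy7 in striatum. In cerebellum they ran over -0.08 to 0.04 for Adcy3 and -0.04 to 0.07 for Adcy1. The difference between both genotype differences ran over -0.01 to 0.2 for Adcy6 and -0.02 to 0.12 for Adcy2. The cause was not tested. Probe sets with means under 4 stay near the floor, where a difference was not detectable.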
